A study of Mus musculus with 9 samples.

Results

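The transcripts described here are those of the CCN family of secreted matricellular proteins, of the transcription factor SRF, of the Hippo pathway coactivators YAP and TAZ, and of their target genes Ankrd1 and Amotl2, in RNA of extracellular vesicles (EVs). EVs are membrane-bound particles that cells release with a sample of their RNA. Members were taken by gene name from all noncontrol probes of a one-colour Agilent mouse array. They were 10 genes (Cyr61, Ctgf, Nov, Wisp1, Wisp2, Srf, Ankrd1, Yap1, Wwtr1 and Amotl2) with 12 of the 55681 probes, and 8 of the genes, with 9 probes, were bright enough to test among 14318 genes. These genes were selected on values of the same comparison that is described here, so their differences stand as a description and no p-value is given for them.

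The vesicles were released by MEFs (mouse embryonic fibroblasts), connective tissue cells cultured from embryos. The labels name a PBS treated group with 5 arrays and a Control group with 4 arrays. PBS is phosphate buffered saline, and the labels do not say whether the cells of either group received the electric pulses that the study used to load vesicles, nor do they name any plasmid. All cells were MEFs, and the study's methods describe a purchased culture. Serum-free medium is described there for collecting vesicles from transfected cells after the pulses. Whether it was used for these 2 groups is not given. Genotype, strain and age were not given. Whether each replicate was a culture of its own is not given, so a p-value here reflects only how far these samples scattered, and that scatter may be technical.

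The CCN proteins (Cyr61, Ctgf and Nov, with Wisp1 and Wisp2, the members also numbered CCN1 to CCN5) are secreted into the matrix, where they bind integrins and heparan sulfate proteoglycans. Cyr61 and Ctgf are classical immediate targets of YAP (Yap1) and TAZ (Wwtr1), coactivators that enter the nucleus and bind TEAD factors when the Hippo kinases are inactive, as they are in spread or stretched cells. SRF binds the CArG box and works with the actin-regulated MRTF coactivators or with the ternary complex factors of the ELK family, so that cytoskeletal genes and growth-factor-induced early genes are under 1 regulator. In fibroblasts both routes are known for their response to adhesion, tension and serum.

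Promoters of the members were searched for the CArG box of SRF and for the TEAD motif. They are printed for the 3 members that had a lower signal in PBS treated EVs and an entry in the promoter table. RefSeq promoter windows (GRCm38.p6, 250 bases before and 50 after a start site) matched 6 of the 10 members, with 7 windows. Those members were Cyr61, Srf, Ankrd1, Yap1, Wwtr1 and Amotl2. The bases before the start site are given 5′ to 3′ on the strand of the gene, for Srf at chr17:46556163-46556412 (minus strand), for Cyr61 at chr3:145649986-145650235 (minus strand) and for Amotl2 at chr9:102717554-102717803 (plus strand). Capitals mark the CArG boxes in Srf and the TEAD motif (GGAATG or its reverse complement CATTCC) in Cyr61 and Amotl2.
Srf: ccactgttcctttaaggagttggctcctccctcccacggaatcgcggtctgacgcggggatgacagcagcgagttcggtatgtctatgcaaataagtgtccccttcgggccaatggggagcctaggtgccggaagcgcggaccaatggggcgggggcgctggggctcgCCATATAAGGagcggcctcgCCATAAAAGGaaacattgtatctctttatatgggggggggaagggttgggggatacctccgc
Cyr61: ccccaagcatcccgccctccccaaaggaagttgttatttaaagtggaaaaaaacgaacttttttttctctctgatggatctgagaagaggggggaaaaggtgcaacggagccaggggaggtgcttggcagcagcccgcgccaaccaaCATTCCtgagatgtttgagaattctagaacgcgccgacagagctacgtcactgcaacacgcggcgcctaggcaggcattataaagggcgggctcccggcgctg
Amotl2: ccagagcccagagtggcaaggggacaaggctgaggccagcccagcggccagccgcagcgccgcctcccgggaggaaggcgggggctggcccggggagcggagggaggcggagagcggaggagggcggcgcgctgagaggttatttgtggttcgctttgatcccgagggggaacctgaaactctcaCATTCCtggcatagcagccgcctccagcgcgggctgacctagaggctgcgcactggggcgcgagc
Srf held 2 CArG boxes, starting 82 and 62 bases before the start site, while 1.63% of all 32851 windows held at least 1. No other member window held a CArG box. The TEAD motif stood in 6 of the 7 member windows, against 14.7% of all windows. It started 103 bases before the start in Cyr61, 65 in Amotl2, 141 in Yap1 and 136 in 1 window of Wwtr1 (170 in the other, which overlaps it), and Ankrd1 held it at 210 and 123 bases. A match of letters is not evidence that a factor binds there. Both strands were searched, and no member window held both motifs, so none overlapped.

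Signals are given as log2 of the scanner's processed intensity minus the 75th percentile, on the same array, of the 8422 probes that were well above background on all 9 arrays. A value of 0 is therefore a bright signal on this scale, and only values of the same probe can be compared. Probes well above background on at least 4 arrays were tested, with the probe of highest mean signal for each gene. Over all genes, 31.5% were higher and 20.7% lower in PBS treated EVs (limma, adjusted p below 0.05), and the groups of arrays did not overlap at all for 47.0% of genes. Between 12584 and 19233 probes were well above background per array, and the 2 Control arrays of slide 2 were the dimmest. No spot was saturated. The arrays lay on 2 slides. Slide 2 carried the PBS treated arrays 4 and 5 with the Control arrays 3 and 4, and slide 1 the others. Of 17 fibroblast markers, 10 were well above background on every array, among them Col1a1, Col1a2, Vim and Pdgfra, and Thy1 was on none.

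Wisp2 had the largest difference of the CCN transcripts and was higher in PBS treated EVs. Wisp2 (CCN5) lacks the C-terminal domain of its relatives and is known as a growth-restraining, adipose-linked CCN protein. Its probe (chr2:163658717-163658776, mm9, the build of the array annotation) gave 0.18, 0.29, 0.33, 0.57 and 0.68 in PBS treated replicates 1 to 5. The Control replicates 1 to 4 gave -2.30, -2.16, -2.43 and -2.57. All 5 PBS treated arrays lay above all Control arrays, and within each slide the groups were tight and far apart. The difference was 2.78 ± 0.15 on the log2 scale (SE from limma, n = 5 and 4), a 6.85-fold higher signal that stood at the 99.0th percentile of all genes tested. It was 2.50 on slide 1 and 3.13 on slide 2. Before any scaling, the processed intensity of Wisp2 ran from 1624 to 2675 in PBS treated and from 73.0 to 230 in Control EVs, which again did not overlap.

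Ctgf stood at the other end. Ctgf (CCN2) is the profibrotic family member that TGF-beta and YAP induce in fibroblasts. Its probe (chr10:24318281-24318340) gave -3.65, -3.57, -3.15, -3.61 and -3.51 in the PBS treated replicates 1 to 5. The Control replicates gave -1.25, -1.26, -1.91 and -2.16. Every PBS treated array was below every Control array, and the Control arrays of slide 1 were higher than those of slide 2. The difference was -1.85 ± 0.22 (3.61-fold lower, 11.9th percentile of all genes), with -2.20 on slide 1 and -1.52 on slide 2. Without the 2 Control arrays of slide 2 it was -2.24. Unscaled, the Ctgf intensities overlapped: 89.7 to 184 in PBS treated and 97.0 to 428 in Control EVs, so the groups separated only once each array was scaled to its other probes.

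Cyr61 lay on the same side as Ctgf. Cyr61 (CCN1) is an angiogenic and pro-adhesive matricellular protein. Its probe (chr3:145310187-145310246) gave -5.07, -5.06, -5.13, -4.83 and -4.89 in PBS treated EVs and -3.98, -4.08, -4.28 and -3.77 in Control EVs. The groups did not overlap and differed by -0.97 ± 0.14 (1.96-fold lower, 27.2nd percentile), with -1.06 on slide 1 and -0.83 on slide 2. Cyr61 was a dim probe: it was well above background on all 5 PBS treated arrays but on only 2 of the 4 Control arrays, those of slide 1. Scaled to the spike-in probes, which added about 1.28 to every difference, Cyr61 was 0.31 higher in PBS treated EVs. It was -0.99 and called with normexp background correction. It was not called with scaling to all probes (-0.56), with normexp and quantile normalisation (-0.15) or in the authors' value table (-0.11). Unscaled, its intensities overlapped, at 38.6 to 65.6 in PBS treated and 23.3 to 60.7 in Control EVs.

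Wisp1 went with Wisp2 in direction and was much smaller in size. Wisp1 (CCN4) is a CCN protein first described as a WNT1-inducible transcript. Its tested probe (chr15:66754637-66754696) gave -3.41, -3.13, -3.44, -3.28 and -3.45 in PBS treated EVs and -3.96, -3.82, -4.65 and -3.97 in Control EVs. The lowest PBS treated array was above the highest Control array, and Control replicate 3 was the lowest of all. The difference was 0.76 ± 0.18 (1.70-fold higher, 71.9th percentile), with 0.57 on slide 1 and 0.95 on slide 2. Wisp1 too was well above background on only 2 of 4 Control arrays, and with normexp background correction the difference was -0.078. On no array did a second Wisp1 probe (chr15:66750958-66751017) stand well above background.

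Nov (CCN3), a CCN protein linked to growth restraint, was well above background on PBS treated replicate 3 alone, where its probe (chr15:54584204-54584263) gave -6.33. The sixth family member, Wisp3, was not among the members, and its probe was dim on all 9 arrays. Both therefore had only a bound and no fold is given.

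The CCN transcripts did not share 1 direction in these EVs. Because probes on 1 array share its scaling, the difference of 2 log2 signals on that array is free of it. Wisp2 minus Ctgf was 3.83, 3.86, 3.48, 4.18 and 4.19 in PBS treated EVs and -1.06, -0.90, -0.52 and -0.41 in Control EVs. The arrays of the 2 groups lay far apart on this measure, whose level in itself has no meaning between probes. The change of this gap was 4.63, or 24.7-fold, with 4.70 on slide 1 and 4.65 on slide 2. It was 4.03 with normexp and 3.73 in the authors' value table. The gap of Wisp2 to Cyr61 changed by 3.74 and that of Wisp2 to Wisp1 by 2.01. Ctgf minus Cyr61 changed by -0.88, with -1.14 on slide 1 and -0.69 on slide 2, but the groups overlapped on this measure and Cyr61 was dim on the Control arrays of slide 2. As bulk RNA was measured, fewer vesicles that carry a transcript and less of it per vesicle cannot be told apart.

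**Figure D1:**
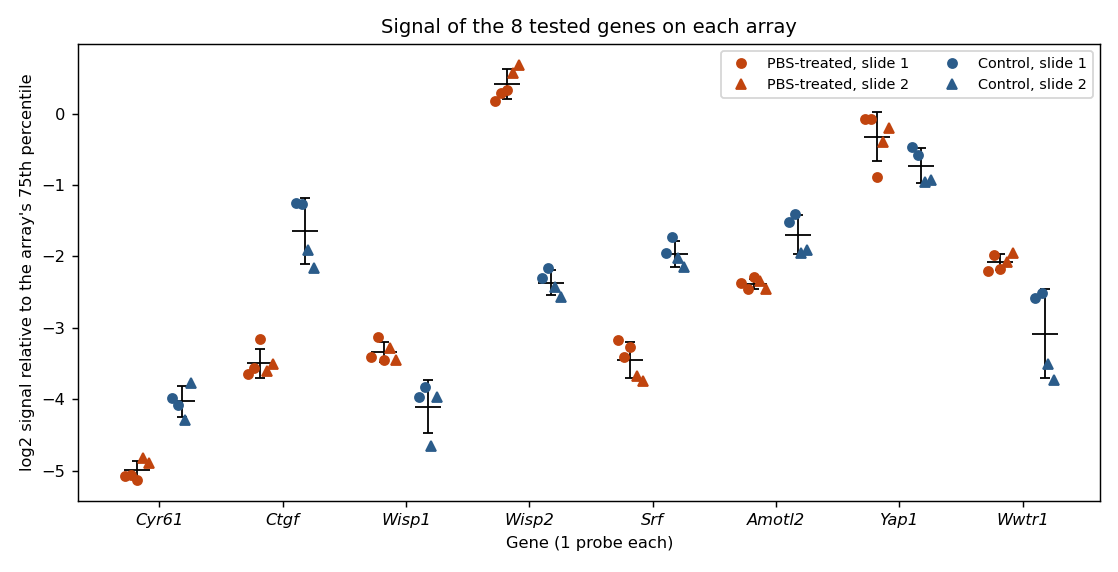
Log2 signal relative to the 75th percentile of the array (y axis) for the 8 tested genes (x axis). Each point is 1 of 9 arrays, circles for slide 1 and triangles for slide 2; the black lines are the group mean and SD, for 5 PBS treated and 4 Control arrays. For 7 of the 8 genes the groups of points do not overlap; for Yap1 they do.

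Srf itself was lower in PBS treated EVs. Its gene-level probe (chr17:46685306-46685365) gave -3.17, -3.40, -3.27, -3.67 and -3.75 in PBS treated EVs. The Control replicates gave -1.95, -1.73, -2.03 and -2.15. The groups were separated by about the same distance on each slide. The difference was -1.49 ± 0.16 (2.81-fold lower, 16.9th percentile), with -1.44 on slide 1 and -1.62 on slide 2. A second Srf probe, annotated over only 8 bases at chr17:46683788-46683795 and lying further 3′ in the transcript, gave -4.47, -4.24, -3.99, -3.81 and -3.95 in PBS treated and -2.46, -2.64, -2.57 and -2.71 in Control EVs. Its difference was -1.50, so the 2 probes of Srf gave nearly the same difference. The change of Ctgf minus Srf was -0.36, with -0.76 on slide 1 and 0.10 on slide 2. Scaled to spike-ins, the Srf difference was -0.21.

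Of the YAP coactivators, Wwtr1 was called higher and Yap1 did not pass the test. Both were selected on this comparison, so the calls are a description and no contrast between them is drawn. Wwtr1 encodes TAZ. Its probe (chr3:57259999-57260058) gave -2.21, -1.98, -2.18, -2.08 and -1.95 in PBS treated EVs and -2.59, -2.52, -3.51 and -3.72 in Control EVs. The PBS treated arrays were level across slides, while the Control arrays of slide 2 were about 1 log2 unit below those of slide 1. The difference was 1.005 ± 0.27 (2.01-fold higher, 78.6th percentile), but 0.43 on slide 1 and 1.60 on slide 2. Without the 2 Control arrays of slide 2, which had the fewest probes above background, it was 0.47. Their part in the result was not tested beyond that.

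Yap1 encodes YAP. Its probe (chr9:7932025-7932084) gave -0.074, -0.071, -0.89, -0.39 and -0.20 in PBS treated EVs and -0.47, -0.58, -0.95 and -0.92 in Control EVs. The groups overlapped, with PBS treated replicate 3 between the Control arrays of slide 1 and those of slide 2. The difference was 0.41 ± 0.21, with 0.18 on slide 1 and 0.64 on slide 2. Without PBS treated replicate 3 it was 0.55 and passed the test, and without the Control arrays of slide 2 it was 0.20.

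Amotl2, an angiomotin that YAP induces and that in turn holds YAP in the cytoplasm, was lower. Its probe (chr9:102635025-102635084) gave -2.37, -2.45, -2.29, -2.34 and -2.46 in PBS treated EVs and -1.52, -1.41, -1.94 and -1.91 in Control EVs. The PBS treated arrays spanned less than the Control arrays and lay below all of them. The difference was -0.69 ± 0.14 (1.61-fold lower, 32.6th percentile), with -0.91 on slide 1 and -0.47 on slide 2. Scaled to spike-ins it was 0.59. Wwtr1 minus Amotl2, within an array, changed by 1.69 (1.34 on slide 1 and 2.08 on slide 2). Ankrd1, a nuclear ankyrin-repeat protein and the other classical YAP target, had a probe (chr19:36186809-36186868) that was well above background on 0 of the 9 arrays, so no difference can be given for it.

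In all, 3 of the 8 tested genes were called higher (Wisp1, Wisp2 and Wwtr1) and 4 lower (Cyr61, Ctgf, Srf and Amotl2). For 7 of 8 the groups did not overlap. The shares over all genes were 31.5% higher, 20.7% lower and 47.0% without overlap. Over probes, 3 were called higher and 5 lower, while 31.5% of all 17765 tested probes were called higher and 21.0% lower. As the genes were selected on this comparison, nothing is read from these counts. The median difference of the 8 genes was -0.14, beside -0.020 over all genes. Of the 8, only Wisp2 and Ctgf had the same call in all 22 refits with another scaling, filter, block or left-out array.

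**Figure D2:**
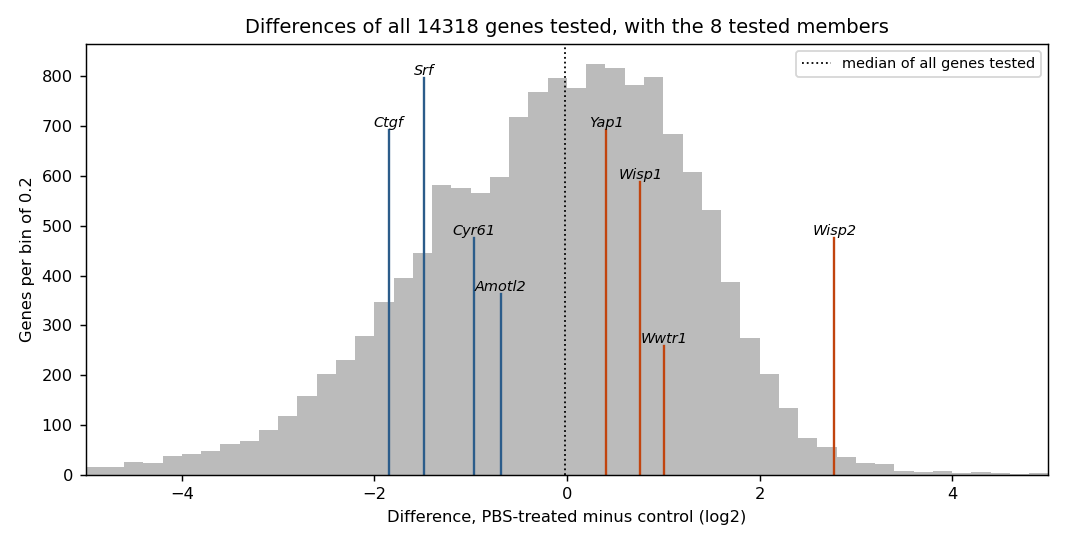
Histogram of the log2 difference, PBS treated minus Control (x axis), of all genes tested (y axis, genes per bin of 0.2 log2 units), with the 8 tested genes as vertical lines whose height has no meaning and the median of all genes dotted. Wisp2, at 2.78, lies in the right tail, and Ctgf, at -1.85, is the lowest of the 8. Genes past ±5 are not shown.

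The direction of the smaller differences depended on scaling, as the median of all genes moved with it. The median of all genes was -0.020 as reported, 0.39 when scaled to all probes, 1.26 when scaled to spike-ins, -0.51 with normexp, 0.093 with normexp and quantile normalisation, and 0.096 in the authors' value table. The 3 scalings of the processed intensity shift all genes alike, so a difference relative to the median is the same in them by construction. Against these, the settings that could differ were both normexp settings and the value table, and there each of the 8 genes kept its sign relative to the median. Wisp2 exceeded the median by between 2.30 and 2.80, Ctgf stood at -1.83 to -1.27 relative to it and Srf at -1.47 to -0.72.

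**Figure D3:**
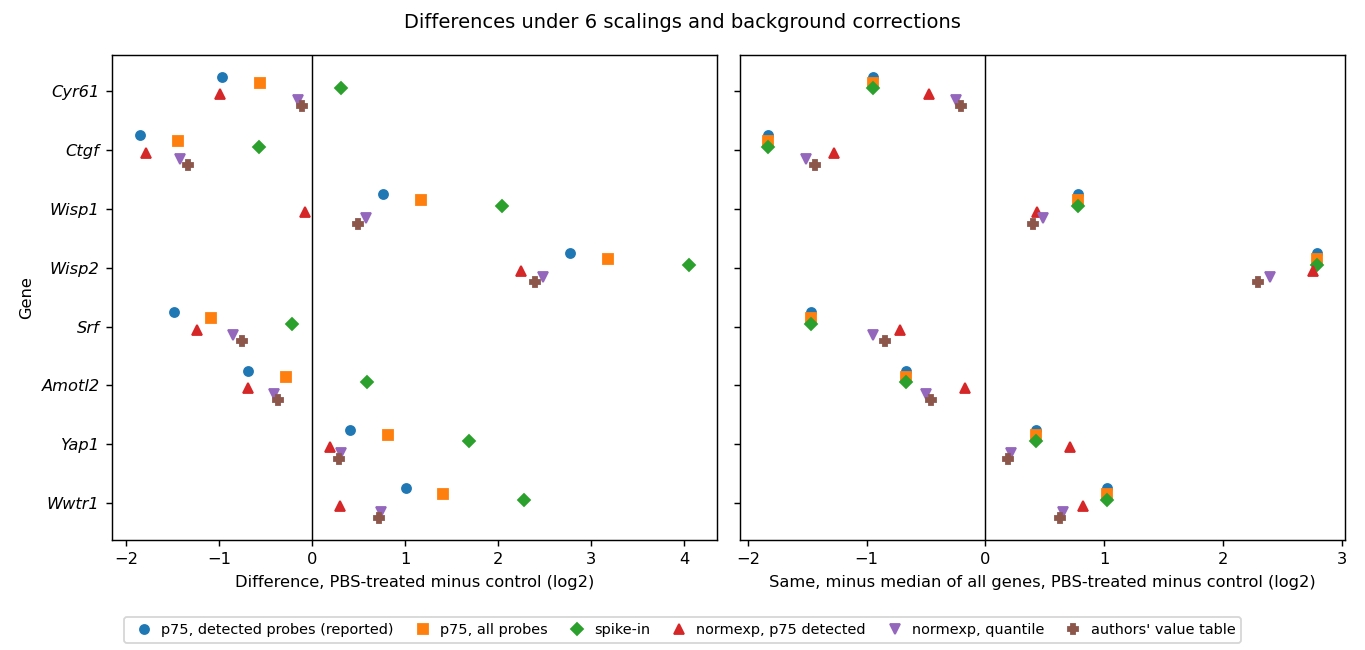
Log2 difference, PBS treated minus Control (x axis, left), and the same minus the median over all genes (x axis, right) for the 8 tested genes (y axis). Each symbol is 1 of 6 scalings or background corrections, where p75 means the 75th percentile. On the left, Cyr61 and Amotl2 cross 0 with spike-in scaling and Wisp1 with normexp, and on the right, where the 3 scalings without normexp or the value table coincide by construction, no gene crosses 0.

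Across the 9 arrays the members ordered themselves largely by group, so the following correlations are descriptions that share the group difference, the slide and each array's scaling. Ctgf and Amotl2 had r = 0.98, and 0.88 after each group's mean was removed. Ctgf and Srf had r = 0.96, but 0.48 after centring. Wisp2 and Srf had r = -0.97, and -0.37 after centring. Wwtr1 and Amotl2 ran opposite over all arrays (r = -0.50) and together within groups (r = 0.86), where both were lower on the Control arrays of slide 2. Among 9618 genes over the 9 arrays, the patterns most like that of Wisp2 were those of Pparg (r = 0.998), the master regulator of fat cell differentiation, of the centromere gene Cenpq (0.997) and of the ubiquitin ligase gene Pja2 (0.997). Those most like Ctgf were Thap11 (0.997), Actr1a (0.997) and Lrfn3 (0.994). After centring, r with Wisp2 was 0.83 for Pparg, 0.81 for Cenpq and 0.83 for Pja2. With Ctgf it was 0.97 for Thap11, 0.98 for Actr1a and 0.94 for Lrfn3.

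The Hippo pathway around YAP and TAZ was split. Of 26 tested genes of its core and regulators, 7 were higher, 10 lower and 9 did not pass, beside 31.5% higher and 20.7% lower over all genes. Lats1 and Mob1b, among the 7, were well above background on no Control array. They passed the filter only through the PBS treated arrays, and were at least 1.16-fold and 1.06-fold higher. The median difference of the list was -0.51, beside -0.020 over all genes. The kinase genes Stk3 (Mst2) and Stk4 (Mst1) and their partner Sav1 were among those called higher. In the Control group, Stk3, Stk4 and Sav1 were bright enough for that mark on just 2 arrays out of 4. The LIM-domain LATS inhibitors Ajuba, Limd1 and Wtip were all called lower. Other genes of the list went both ways: Mob1a (-1.49) and Nf2 (-0.55) were lower and Taok1 (0.98) was higher. Lats2, Wwc1, Taok2, Taok3 and Map4k4 were among those that did not pass. No change in Hippo kinase activity is read from these calls. The genes with the lowest adjusted p were Vgll4, a cofactor that competes with YAP for TEAD (-4.14 ± 0.20, adjusted p = 2.25e-06), and Tead2, a DNA-binding partner of YAP (-2.78 ± 0.17, adjusted p = 7.37e-06). They were followed by the giant cadherin Fat4 (-4.47 ± 0.30, adjusted p = 1.14e-05) and by Ajuba (-3.30 ± 0.25, adjusted p = 1.78e-05). Vgll4 was well above background on 3 of the 5 PBS treated arrays. Tead2 gave -2.41 to -2.17 in PBS treated and 0.087 to 0.81 in Control EVs, and both of its probes were lower. Scaled to spike-ins the list held 15 genes called higher and 4 lower, and with normexp 3 and 13.

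Other YAP and TEAD targets were called in both directions. Of 19 tested, 4 were higher, 4 lower and 11 did not pass, beside 31.5% higher and 20.7% lower over all genes, with a median of -0.15. Scaled to spike-ins, 11 were higher and 1 lower (median 1.13), and with normexp 2 and 7. The cyclooxygenase gene Ptgs2 was well above background on no array of the Control group and was at least 4.16-fold higher in PBS treated EVs. The ectonucleotidase gene Nt5e (CD73) was likewise bounded, at least 2.46-fold higher. Both passed the filter only through the PBS treated arrays, so no p-value is given for them. The RNA-binding protein gene Rbms3 rose by 3.02 ± 0.33 (adjusted p = 0.000111), though its other tested probe gave 0.38 and was not called. Ajuba, which is on this list as well, was lower as above, and so were Arhgef17 (-1.04 ± 0.18), Amotl1 (-0.997 ± 0.19) and Tgfb2. Without the Control arrays of slide 2 the list held 6 genes higher and 6 lower.

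Targets of SRF with MRTF, the cytoskeletal arm, were called in both directions. Among 23 tested genes, 9 rose and 3 fell, and 11 did not pass the test. Over all genes, 31.5% were higher and 20.7% lower. The median of the list was 0.045. Myl9, among the 9 that rose, was well above background on no Control array. It passed the filter only through the PBS treated arrays, and its bound gave no fold above 1. Scaled to spike-ins the counts were 19 higher and 0 lower, and with normexp 5 and 5. The LIM-domain genes Fhl2 (2.43 ± 0.25, adjusted p = 7.5e-05) and Tgfb1i1 (1.37 ± 0.16, adjusted p = 0.000185), the tropomyosin gene Tpm4 (1.63 ± 0.23, adjusted p = 0.000415) and the focal adhesion gene Zyx (0.88 ± 0.12, adjusted p = 0.000449) had the lowest adjusted p. Without the Control arrays of slide 2 the counts were 5 higher and 6 lower.

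Targets of SRF with ternary complex factors, the early genes, had 7 of 11 higher with limma, 0 lower and 4 not passing. The shares over all genes were 31.5% higher and 20.7% lower, and the median of the list was 1.52. None of the 11 early genes was lower at an unadjusted p below 0.05 either, and 3 were called lower with normexp. With the genes that had only a bound set to it, the median was 1.05. Ier3, a stress-induced survival gene, was at least 7.28-fold higher. Ier3, Egr2 and Fosl1 were well above background on no Control array. They passed the filter only through the PBS treated arrays, so no p-value is given for them. On probes well above background on every array, the list held 2 tested genes, 1 higher and 0 lower. The zinc finger gene Egr1 rose by 2.19 ± 0.28 (adjusted p = 0.000281), the MAP kinase phosphatase gene Dusp1 by 2.12 ± 0.42 (adjusted p = 0.00282) and the nuclear receptor gene Nr4a1 by 1.32 ± 0.21 (adjusted p = 0.00086). Egr1, Dusp1 and Nr4a1 were well above background on 2 of 4 Control arrays. With normexp the list had 2 higher and 3 lower and its median was -0.034, as was the difference of Nr4a1.

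The regulators of SRF were divided. All 8 tested cofactors and regulators were called, 4 higher and 4 lower, beside 31.5% higher and 20.7% lower over all genes. The MRTF gene Mkl1, the actin regulators Rhoa (1.05 ± 0.12, adjusted p = 0.000116) and Diaph1, and Fhl2 were higher. The ternary complex factor genes Elk4 (-2.15 ± 0.22, adjusted p = 8.27e-05), Elk1 (-1.16 ± 0.15, adjusted p = 0.000258) and Elk3, and the second MRTF gene Mkl2, were lower. Both tested probes of Rhoa were higher and both of Elk4 lower. Scaled to spike-ins, 6 were higher and 1 lower, and Elk1 was 0.12.

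Receptors of CCN proteins were mostly lower. Of the 12 that were tested, 9 fell, 1 rose and 2 missed the threshold, beside 20.7% lower and 31.5% higher over all genes. The median of the receptors was -1.15 (-1.05 on slide 1 and -1.48 on slide 2). The WNT co-receptor gene Lrp6 (-1.94 ± 0.11, adjusted p = 5.49e-06), the sorting receptor gene Igf2r (-2.18 ± 0.21, adjusted p = 5.34e-05) and the laminin-binding integrin gene Itga6 (-1.89 ± 0.23, adjusted p = 0.000214) were lower. Lrp6 gave -3.59 to -3.30 in PBS treated and -1.62 to -1.48 in Control EVs, and its other tested probe had a difference of -0.995 and was not called. The exception was the heparan sulfate proteoglycan gene Sdc4, which rose by 1.86 ± 0.24 (adjusted p = 0.000291). Scaled to spike-ins the list had 2 higher and 3 lower with a median of 0.13. The macrophage integrin gene Itgam is on this list and among the macrophage markers.

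Inducers of Ctgf and Cyr61, the TGF-beta pathway and G protein-coupled receptors, had 4 of 10 lower, 1 higher and 5 not passing. Their median was -0.67, and over all genes 20.7% were lower and 31.5% higher. The ligand genes Tgfb3 (-1.63 ± 0.15, adjusted p = 5.3e-05) and Tgfb2 (-0.95 ± 0.20, adjusted p = 0.00367) and the signal transducer gene Smad3 (-1.71 ± 0.21, adjusted p = 0.000205) were lower. The receptor gene Tgfbr2 rose by 0.93 ± 0.14 (adjusted p = 0.000673) on the probe used, while its other probe gave -0.46 and was called lower. The list's median was -0.86 on slide 1 and 0.14 on slide 2. With spike-in scaling the list had 5 higher and 0 lower with a median of 0.60, and Tgfb2 was 0.33. The counts were 1 higher and 0 lower with scaling to all probes, and 1 and 7 with normexp.

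**Figure D4:**
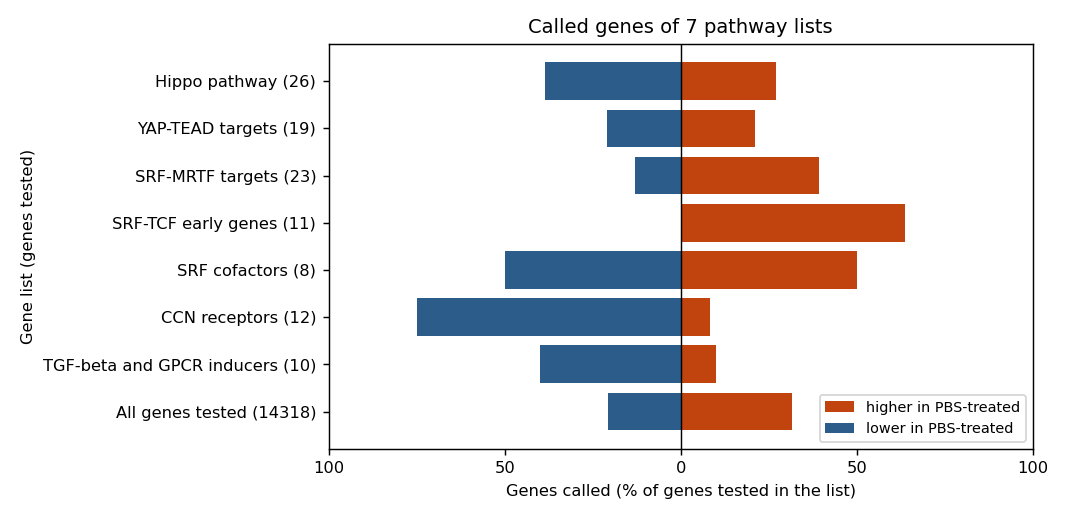
Share of tested genes called higher (right) and lower (left) in PBS treated EVs (x axis, percent of genes tested) for 7 pathway lists and all genes (y axis, number tested in brackets). The early SRF-TCF genes have 7 of 11 higher and none lower, the CCN receptors 9 of 12 lower, and all genes 31.5% higher and 20.7% lower. The shares include genes well above background on no Control array, Ier3, Egr2 and Fosl1 among the early genes.

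Markers of the source cell and of others were read alongside. For each cell type, signals were summed before log2 was taken, so the brightest markers weigh most. Sums cover tested markers only, which were 15 fibroblast, 3 macrophage, 2 endothelial, 2 epithelial and 2 muscle markers. The sum of the fibroblast markers was 4.71 to 4.81 in PBS treated and 3.78 to 4.46 in Control EVs. Of the 15 tested, 5 were called higher and 6 lower. Those called higher were Prrx1 (2.96 ± 0.50), Dcn (2.03 ± 0.29), S100a4 (1.45 ± 0.45), Twist1 (1.23 ± 0.28) and Lum, which had only a bound in Control EVs. Those called lower included Pdgfra (-1.94 ± 0.24), Col6a1 (-1.43 ± 0.16), Col1a1 (-1.35 ± 0.18) and Fn1 (-1.17 ± 0.15). Prrx1 and Twist1 were well above background on 2 and 1 of the 4 Control arrays. Of 9 macrophage markers, 3 (Csf1r, Itgam and Cd14) were well above background on all arrays and 5 (Cd68, Adgre1, Lyz2, Aif1 and Fcgr1) on none, with sums of 0.066 to 1.03 in PBS treated and 1.06 to 1.60 in Control EVs. Cd14 was higher (2.21 ± 0.36) and Csf1r (-2.70 ± 0.84) and Itgam (-1.30 ± 0.25) lower. Of 7 endothelial markers, Kdr alone was well above background on all arrays (-1.43 ± 0.23), 5 were on none, and the sums were -3.50 to -2.90 in PBS treated and -2.11 to -1.39 in Control EVs. None of 7 epithelial and none of 12 cardiac and skeletal muscle markers was well above background on every array, and Epcam, Cdh1, Krt18, Myod1, Ckm and Actn2 were on none. The sums of the epithelial markers were -5.41 to -4.19 in PBS treated and -5.31 to -3.45 in Control EVs, and those of the muscle markers -5.47 to -2.10 and -4.88 to -1.15. The part of these markers in the differences above was not tested.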

How the data were processed

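RNA of EVs from MEFs was hybridised to 60-base one-colour arrays, and scanner intensity values were deposited, background-subtracted by Feature Extraction 10.7.3.1 (protocol GE1_107_Sep09, mm9 annotation, per the file headers), with 0 or 1 marks per spot for signals well above background (other columns per the file headers). The authors also deposited log2 values, quantile-like with equal medians per array (5.97), as an alternative. Members and gene lists were chosen with earlier results of these data known. Spots of a probe were averaged, log2 intensity was scaled to the array's 75th percentile over the 8422 probes detected on every array, and genes were tested with limma 3.58.1 (lmFit, eBayes, Benjamini-Hochberg, threshold 0.05), 5 against 4 arrays, on probes well above background on at least 4 arrays. "At least" folds set the dim group, on each array, to the higher of its own signal and the lowest signal well above background. The pathway genes named were at most 4 per list, those with the lowest adjusted p, and other list genes were named after their values were seen. Samples were grouped by the labels. Scripts ran on R 4.3.3 and were tested on simulated data. The number of arrays limits precision. Array exon and untranslated region annotation was not used here.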

Additional observations from a re-analysis of the deposited data

Results flagged for a closer look

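Among the 24 groups of arrays examined for the members' probes, 1 held an array far from the others. The Ctgf signal of PBS treated replicate 3 was -3.15, above the other PBS treated arrays by 0.716 of the group's range. Chance gives about 1 such group in 20.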

How the results depend on the processing

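Over all genes, 4512 were higher and 2963 lower as reported (60.4% of calls higher). The counts were 8923 and 721 (92.5%) with spike-in scaling, 1890 and 4654 (28.9%) with normexp, 3527 and 1353 (72.3%) with scaling to all probes, 3724 and 1917 with normexp and quantile normalisation, and 3734 and 1907 in the authors' value table. Without a filter they were 3600 and 5266 (40.6%), on probes well above background on every array 2375 and 2133, with slide as a block 5066 and 4909 (50.8%), on slide 1 alone 4424 and 4489 (49.6%), and with the methods' t test 4810 and 3234 unadjusted, 4411 and 2806 after Benjamini-Hochberg and 436 and 412 after Holm. Members higher and lower were 1 and 1 with scaling to all probes and 5 and 1 with spike-ins; 1 was higher with normexp, and 2 were lower with normexp and quantile normalisation and in the value table. Of 102 pathway genes, 32 were higher and 30 lower as reported, 65 and 8 with spike-ins, 16 higher with normexp, 13 higher on probes above background on every array, 12 lower with scaling to all probes, and 17 lower with normexp and quantile normalisation and in the value table. With spike-ins, differences that reversed included Cyr61 (0.31), Amotl2 (0.59), Elk1 (0.12), Fn1 (0.11) and Tgfb2 (0.33). There 1.28 was added to every difference, so every smaller fall reversed, those of Arhgef17, Amotl1, Elk3 and Mkl2 among them. With normexp, reversed differences included Wisp1 (-0.078) and Nr4a1 (-0.034). The cause was not tested, except that spike-in scaling adds the same amount to every gene. With 1 array left out, the Ctgf difference ran from -2.02 to -1.72, Wisp2 from 2.71 to 2.84, Wwtr1 from 0.79 to 1.19 and Wisp1 from 0.58 to 0.85. Same-numbered replicates deviated together for numbers 1, 2 and 4 (correlations 0.70, 0.73 and 0.74), which lay on the same slide in both groups, and not for number 3 (-0.54), which was split between slides, so the numbers were not taken as pairs. The replicate block gave 4082 higher and 3362 lower genes and 3 higher and 4 lower members.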
